A study of Caenorhabditis elegans with 6 samples.

Results

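The UDP-glucuronosyltransferase (ugt) genes of the nematode Caenorhabditis elegans were followed in newly hatched larvae that differed in a branched-chain fatty acid. Members were the genes whose array annotation symbol begins with ugt-, each represented by its brightest probe set among those annotated to 1 gene. This gave 64 genes of the 17118 named on the array. For 13 of them, ugt-6, ugt-29, ugt-51 and ugt-60 included, that probe set was of the _s_at type, whose probes can match several transcripts. Signal shared with other genes was not tested. The gene table used for names lists 67 ugt genes, and ugt-34, ugt-49 and ugt-65 had no probe set of their own and were not analysed here.

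Total RNA of whole first-stage (L1) larvae, hatched without food, was hybridised to 6 Affymetrix C. elegans arrays, 2 per group. The first group was elo-5(gk208) larvae from mothers supplemented with C13ISO, which the labels call C17ISO deficient. The second was elo-5(gk208) larvae from mothers supplemented with C17ISO, and the third was larvae of the N2 strain from mothers supplemented with C13ISO. All 3 groups had the same history apart from genotype and the last supplement: 1 generation on OP50 bacteria with 1 mM C17ISO in DMSO at 20 °C, a generation with 1 mM of the group's own supplement, bleaching of the adults, and 24 h for the eggs on plates without food. C13ISO and C17ISO are iso-methyl branched-chain fatty acids, and elo-5 encodes a fatty acid elongase on the route that makes C17ISO. The design text calls the 2 arrays of each group biological replicates. The 6 arrays included no group of N2 larvae with C17ISO.

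UDP-glucuronosyltransferases are membrane enzymes of the endoplasmic reticulum that join the sugar of a UDP-sugar to fat-soluble molecules. The sugar makes the molecule soluble in water, so that transporters can carry it out of the cell. The reaction belongs to phase II of detoxification, after phase I enzymes such as cytochromes P450 have added or exposed a reactive group, and endogenous lipids and hormones can also be acceptors. C. elegans has a large ugt family, worms often attach glucose where mammals attach glucuronic acid, and the acceptors of most single members are not known.

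The elo-5 probe set, which checks the genotype labels, read 217 and 144 in the elo-5 C13ISO arrays and 146 and 178 in the elo-5 C17ISO arrays, against 1169.7 and 1608 in the N2 arrays. Array medians were 134 and 127 in elo-5 C13ISO larvae and 111 and 107 in elo-5 C17ISO larvae, against 119.6 and 111 in N2 larvae. Over tested probe sets, arrays of the same group had Spearman correlations of 0.9801 to 0.9918. Correlations were 0.8562 to 0.8831 between an elo-5 C13ISO array and an array of another group, and 0.9791 to 0.9815 between elo-5 C17ISO and N2 arrays. The 2 elo-5 C13ISO arrays thus stood apart from the other 4 over the tested probe sets.

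In elo-5 C13ISO larvae, more ugt genes were higher than lower relative to elo-5 C17ISO larvae, which have the same genotype. Of the 55 members bright enough to test, 23 were called higher, with ugt-9, ugt-44 and ugt-16 in front, and 9 were called lower, with ugt-26 and ugt-6 in front. A call means an adjusted p of at most 0.05 in limma's test over all tested probe sets. The 23 higher were 41.8% of the tested members, where 27.2% of all 12057 tested genes were called higher. The 9 lower were 16.4% of the tested members, where 18.9% of all tested genes were called lower. In either direction, 58.2% of the tested members and 46.2% of all tested genes were called. The median log2 difference, on the log2(intensity + 16) scale, was 0.41 over the tested ugt genes and 0.08 over all tested genes.

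Relative to N2 larvae given the same C13ISO, 21 of the 55 were called higher in elo-5 C13ISO larvae (38.2%, against 24.8% of all tested genes). Another 9 were called lower (16.4%, against 20.4% of all tested genes), which made 54.5% called in either direction (45.2% of all tested genes), and the median was 0.28 (0.04 over all tested genes). Both comparisons use the same elo-5 C13ISO arrays, so the second is not a separate test of that group. No member was called in opposite directions. In elo-5 C17ISO larvae against N2 larvae, which differ in both genotype and supplement, limma called none of the 55, and 182 of all tested genes (1.51%) were called, 0.821% higher and 0.688% lower.

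The excess of higher over lower calls depended on how the arrays were scaled. With the deposited scaling, 71.9% of the calls against elo-5 C17ISO larvae were higher, with 56.7% after quantile normalization and 50% when array medians were aligned. Over all tested genes the corresponding shares were 59.0%, 53.3% and 38.0%. The aligned split was 15 higher and 15 lower, 27.3% each of the tested members, where 18.8% of all tested genes were higher and 30.6% lower. Aligning the medians moved the median of all tested genes to -0.15 and that of the ugt genes to 0.18. Against N2 larvae, 70.0% of the calls were higher on the deposited scale, 64.5% on the quantile scale and 60.0% on the aligned one, where all tested genes gave 54.9%, 53.0% and 40.5%. The aligned arrays gave 18 higher and 12 lower (32.7% and 21.8% of the tested members), where 19.3% of all tested genes were higher and 28.4% lower, and the median of all tested genes was -0.12 and that of the ugt genes 0.12. Aligned medians ended the calls of ugt-4, ugt-8, ugt-15, ugt-20, ugt-50, ugt-55, ugt-56 and ugt-64 against elo-5 C17ISO larvae and of ugt-1, ugt-28 and ugt-55 against N2 larvae, all of them increases. Without the first elo-5 C17ISO array, 15 members were higher and 5 lower than in elo-5 C17ISO larvae.

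**Figure D1:**
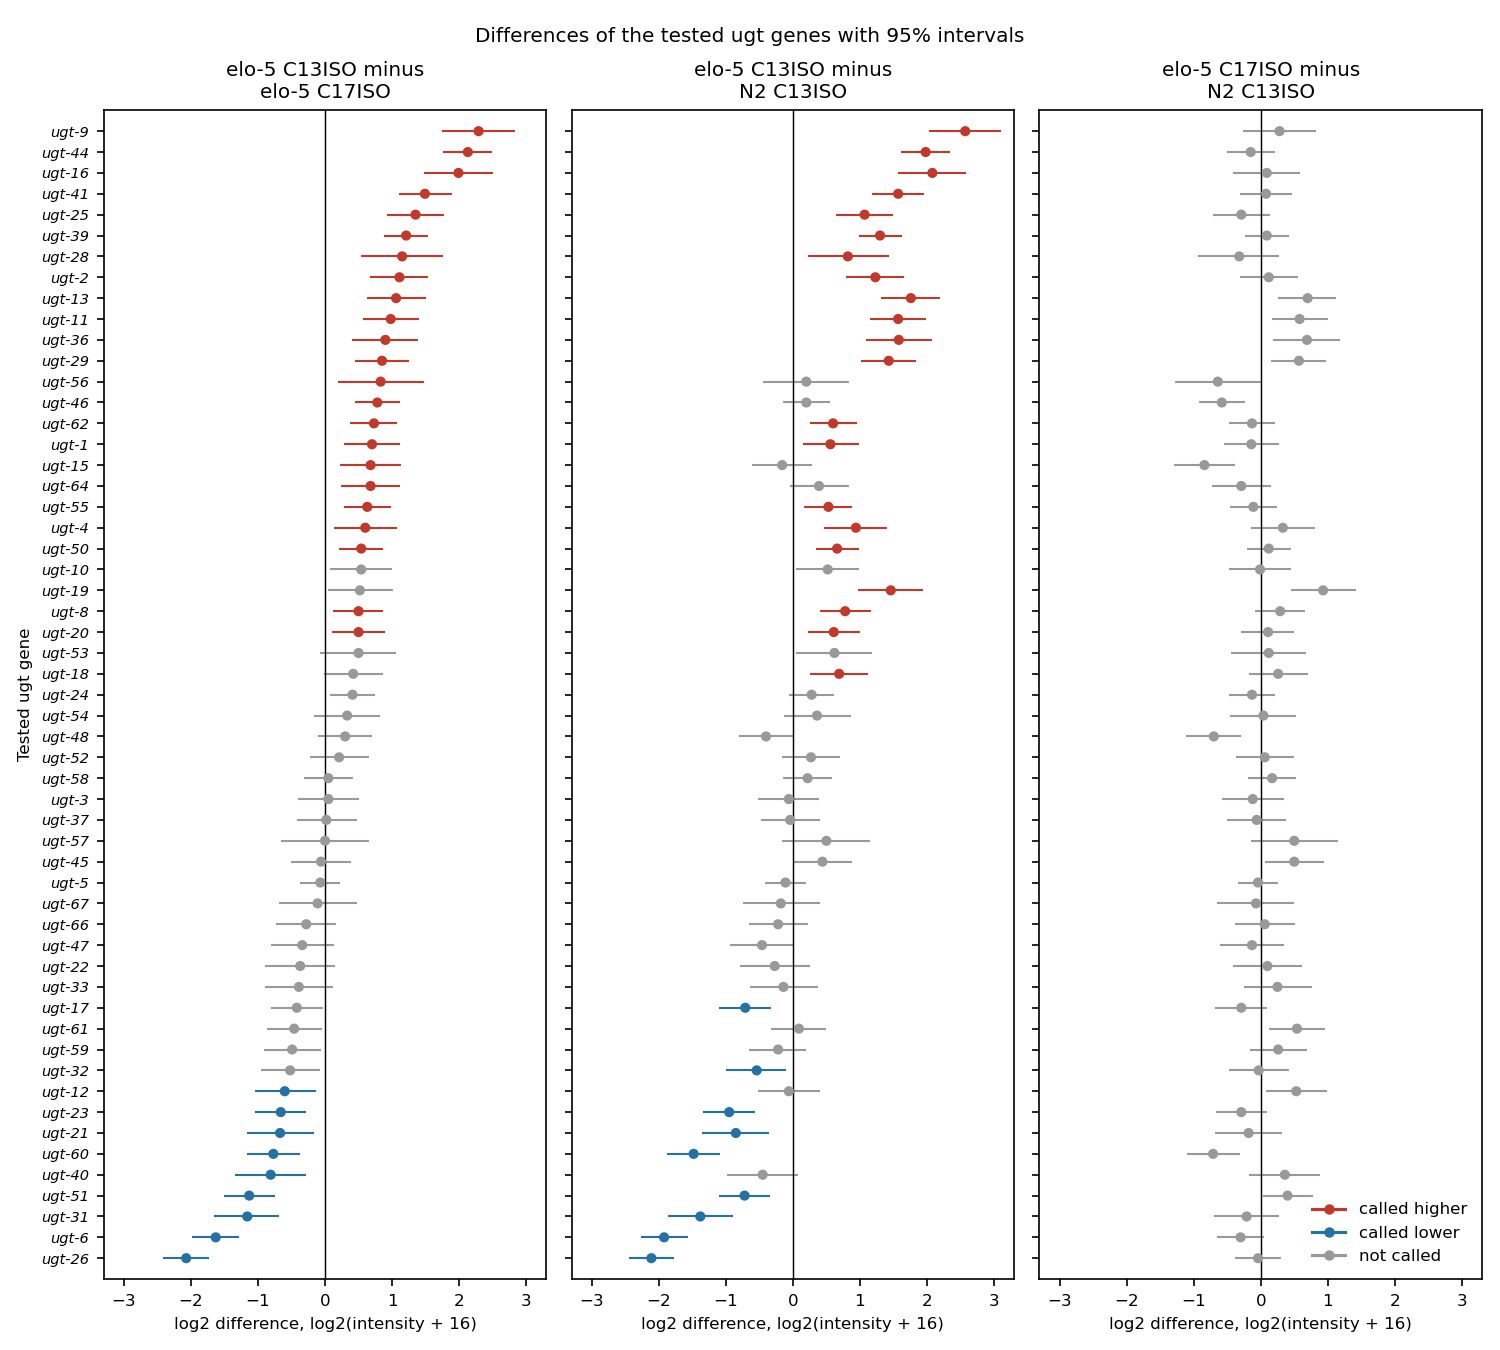
Log2 difference with its 95% interval for each of the 55 tested ugt genes, sorted by elo-5 C13ISO minus elo-5 C17ISO (left), with elo-5 C13ISO minus N2 C13ISO (middle) and elo-5 C17ISO minus N2 C13ISO (right); red is called higher, blue called lower and grey not called. The left panel runs from -2.07 to 2.29 and the middle from -2.11 to 2.57, while the right stays between -0.84 and 0.93 with no calls.

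Sizes were spread widely within the family. Fold differences here and below are on the log2(intensity + 16) scale, so for dim genes they are smaller than ratios of the printed intensities. Differences from elo-5 C17ISO larvae ran from -2.07 to 2.29, and the quartiles were -0.38 and 0.76, against -0.31 and 0.53 for all tested genes. At least 2-fold higher were 9 called members (16.4%, against 11.8% of all tested genes), and at least 2-fold lower were 4 (7.27%, against 7.79%). Relative to N2 larvae, differences ran from -2.11 to 2.57, with 12 called members at least 2-fold higher (21.8%, against 11.7%) and 4 at least 2-fold lower (7.27%, against 8.42%). Arrays of elo-5 C13ISO and elo-5 C17ISO larvae did not overlap for 29 members higher (52.7%, against 41.4% of all tested genes) and 16 lower (29.1%, against 31.0%). Arrays of elo-5 C13ISO and N2 larvae did not overlap for 29 members higher (52.7%, against 39.6%) and 13 lower (23.6%, against 34.3%).

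Markers of other tissues and stages moved with the same contrast. Over all tested genes, 27.2% were called higher and 18.9% lower relative to elo-5 C17ISO larvae, and 24.8% and 20.4% relative to N2 larvae. Of 16 tested oocyte and early embryo markers, 14 were called higher relative to elo-5 C17ISO larvae and 16 relative to N2 larvae, none lower. The summed intensity of all 17 on the array, the untested one included, was 9893 and 15278 in elo-5 C13ISO arrays and 3364 and 2496 in elo-5 C17ISO arrays, against 3824 and 3179 in N2 arrays. Of 7 hypodermis markers, 4 and 5 were called lower in these 2 comparisons, none higher, with summed intensities of 15628 and 16716 in elo-5 C13ISO arrays and 29975 and 31073 in elo-5 C17ISO arrays, against 31485 and 31175 in N2 arrays. All 7 were called lower in both with aligned medians or with a gene's probe sets averaged. Intestine, the tissue known for much of the worm's detoxification, had 5 of 11 markers higher and 4 lower relative to elo-5 C17ISO larvae, and 3 higher and 3 lower relative to N2 larvae. With aligned medians these counts were 2 and 5 in both comparisons, and without the first elo-5 C17ISO array the first was 3 and 3. The intestine sums were 25032 and 23703 in elo-5 C13ISO arrays and 29089 and 27013 in elo-5 C17ISO arrays, against 29992 and 31324 in N2 arrays. Of 7 neuron markers, 1 was higher relative to elo-5 C17ISO larvae and 2 relative to N2 larvae, none lower, but relative to elo-5 C17ISO larvae 2 were lower with aligned medians and 1 with probe sets averaged. Of 7 muscle markers, 1 was higher relative to elo-5 C17ISO larvae (with aligned medians, 1 higher and 1 lower), and 2 were higher and 1 lower relative to N2 larvae. Of 7 sperm markers, 2 were bright enough to test, and 1 was called lower relative to elo-5 C17ISO larvae and none relative to N2 larvae. No marker was at 0 on any array. In whole larvae, fewer cells of a type and less RNA per cell cannot be told apart, and the part of these shifts in the ugt results was not tested.

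ugt-9 had the largest increase of the family in both comparisons. Its intensity was 882 and 955 in elo-5 C13ISO larvae and 224 and 136 in elo-5 C17ISO larvae, against 174 and 114 in N2 larvae. Both elo-5 C13ISO arrays lay far above the other 4. The difference was 4.89-fold from elo-5 C17ISO larvae (log2 2.29, SE 0.24, adjusted p = 4.4e-05) and 5.94-fold from N2 larvae (log2 2.57, SE 0.24, adjusted p = 1.9e-05). Among all 12057 tested genes it ranked 196th from the highest difference in the first comparison and 106th in the second.

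ugt-44 had the second largest increase relative to elo-5 C17ISO larvae. It read 1243 and 1030.0 in elo-5 C13ISO larvae and 259 and 234 in elo-5 C17ISO larvae, against 296 and 255 in N2 larvae, with no overlap between the first group and the other 4 arrays. It was 4.37-fold higher than in elo-5 C17ISO larvae (log2 2.13, SE 0.16, adjusted p = 4.9e-06) and 3.95-fold higher than in N2 larvae (log2 1.98, SE 0.16, adjusted p = 7.5e-06). ugt-16 followed, at 390.0 and 383 in elo-5 C13ISO larvae and 80.7 and 90.1 in elo-5 C17ISO larvae, against 105 and 58.7 in N2 larvae. The 2 elo-5 C13ISO values were close together and above all others, 3.97-fold higher than in elo-5 C17ISO larvae (log2 1.99, SE 0.23, adjusted p = 6.9e-05) and 4.22-fold higher than in N2 larvae (log2 2.08, adjusted p = 4.9e-05).

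ugt-41 was the brightest member. Its arrays read 1935 and 2129 in elo-5 C13ISO larvae and 680.2 and 743 in elo-5 C17ISO larvae, against 814 and 556 in N2 larvae. All 4 of the other arrays were well below both elo-5 C13ISO arrays. The increase was 2.81-fold over elo-5 C17ISO larvae (log2 1.49, SE 0.18, adjusted p = 8.6e-05) and 2.97-fold over N2 larvae (log2 1.57, adjusted p = 5.8e-05). The intensity of a probe set also depends on its probes, so these levels give no order of RNA amounts between genes.

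A further 5 members were at least 2-fold higher than in elo-5 C17ISO larvae, and none of their elo-5 C13ISO arrays overlapped any other array. ugt-25 read 275 and 367 in elo-5 C13ISO larvae and 107 and 123 in elo-5 C17ISO larvae, against 132 and 155 in N2 larvae, and was 2.55-fold (adjusted p = 2.8e-04) and 2.10-fold higher (adjusted p = 0.00123) than in those 2 groups. ugt-39 read 747 and 757 in elo-5 C13ISO larvae and 322 and 310.0 in elo-5 C17ISO larvae, against 312 and 279.6 in N2 larvae, which was 2.32-fold (adjusted p = 1.1e-04) and 2.47-fold higher (adjusted p = 6.1e-05). For both genes the elo-5 C13ISO arrays lay above all 4 others. ugt-2 read 632 and 613 in elo-5 C13ISO larvae and 343 and 229 in elo-5 C17ISO larvae, against 272 and 243 in N2 larvae, which was 2.15-fold (adjusted p = 0.00111) and 2.34-fold higher (adjusted p = 5.6e-04). ugt-28 read 369 and 357 in elo-5 C13ISO larvae and 226 and 105 in elo-5 C17ISO larvae, against 206 and 190.4 in N2 larvae. Its 2 elo-5 C17ISO arrays lay far apart, and it was 2.22-fold higher than in them (log2 1.15, SE 0.27, adjusted p = 0.00646). The 1.77-fold difference of ugt-28 from N2 larvae (log2 0.82, adjusted p = 0.0327) was not called without either elo-5 C13ISO array or either N2 array, with adjusted p between 0.0851 and 0.137.

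ugt-13 completes that set and was graded over the 3 groups. It read 931 and 1325 in elo-5 C13ISO larvae and 529 and 518 in elo-5 C17ISO larvae, against 363 and 276 in N2 larvae. The 3 groups did not overlap one another. It was 2.09-fold higher than in elo-5 C17ISO larvae (log2 1.06, adjusted p = 0.00149) and 3.39-fold higher than in N2 larvae (log2 1.76, adjusted p = 5.5e-05), while the difference of elo-5 C17ISO larvae from N2 larvae was not called (log2 0.70, SE 0.20, adjusted p = 0.127).

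Other members also had elo-5 C17ISO larvae between the other groups, among them ugt-11, ugt-29, ugt-36 and ugt-19. ugt-11 read 462 and 334 in elo-5 C13ISO larvae and 189 and 192 in elo-5 C17ISO larvae, against 125 and 119 in N2 larvae, and was 1.98-fold (adjusted p = 0.00172) and 2.96-fold higher (adjusted p = 8.2e-05) than in those groups. ugt-29 read 479 and 539 in elo-5 C13ISO larvae and 245 and 307 in elo-5 C17ISO larvae, against 203 and 158 in N2 larvae, and was 1.81-fold (adjusted p = 0.00392) and 2.69-fold higher (adjusted p = 1.5e-04). The groups did not overlap for either gene. ugt-36, a dim member, read 116 and 106 in elo-5 C13ISO larvae and 56.5 and 48 in elo-5 C17ISO larvae, against 35.4 and 18.8 in N2 larvae. It was 1.86-fold higher than in elo-5 C17ISO larvae (adjusted p = 0.00826), a call lost without the second elo-5 C17ISO array (adjusted p = 0.0592), and 3.0-fold higher than in N2 larvae (log2 1.58, adjusted p = 2.6e-04). The size of the difference of ugt-36 from N2 larvae depended on the offset, at log2 2.06 with offset 1 and 0.95 with offset 64. ugt-19 read 248 and 209.7 in elo-5 C13ISO larvae and 182 and 130.0 in elo-5 C17ISO larvae, against 86.9 and 61.0 in N2 larvae. It was 2.74-fold higher than in N2 larvae (log2 1.46, SE 0.22, adjusted p = 3.8e-04), but its log2 difference of 0.52 from elo-5 C17ISO larvae was not called (adjusted p = 0.0759).

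**Figure D2:**
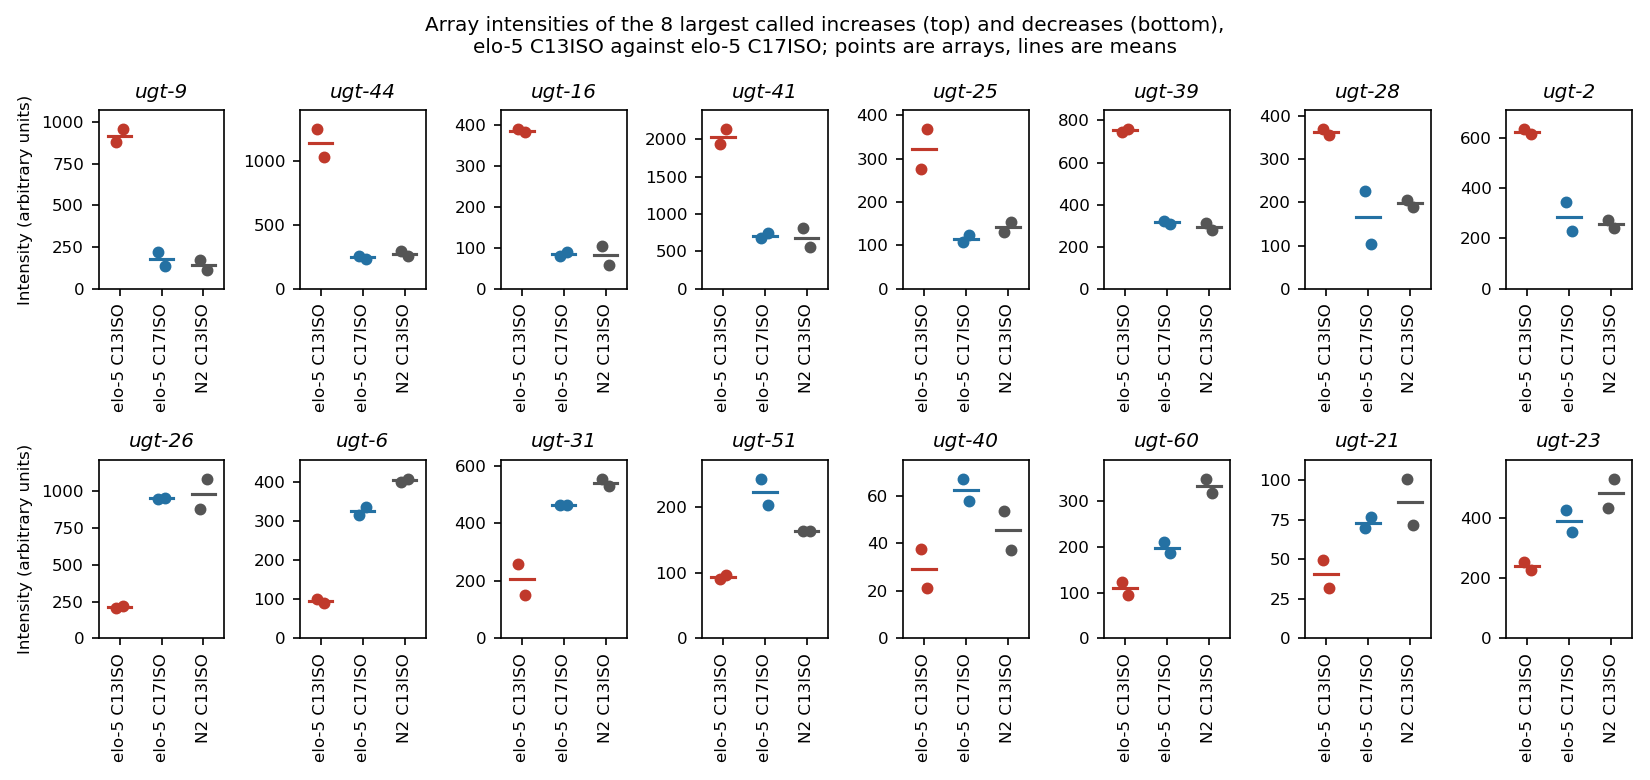
Intensity on each array (points) and group mean (lines) for the 8 largest called increases (top) and decreases (bottom) of elo-5 C13ISO against elo-5 C17ISO larvae, each on its own linear axis from 0. For ugt-9 both elo-5 C13ISO arrays (882 and 955) lie above all others, and for ugt-26 both (206 and 222) lie below all others.

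Among the members that fell, ugt-26 stood at the end of the range. Its intensity was 206 and 222 in elo-5 C13ISO larvae and 945 and 956 in elo-5 C17ISO larvae, against 880.2 and 1084 in N2 larvae. The 2 low arrays were close together and far below the other 4. It was 4.20-fold lower than in elo-5 C17ISO larvae (log2 -2.07, SE 0.15, adjusted p = 3.6e-06) and 4.31-fold lower than in N2 larvae (log2 -2.11, SE 0.15, adjusted p = 3.0e-06), ranking 334th and 329th from the lowest difference among all tested genes.

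ugt-6 had the next largest decrease. It read 100.1 and 89.3 in elo-5 C13ISO larvae and 315 and 336 in elo-5 C17ISO larvae, against 399.8 and 407 in N2 larvae, and no groups overlapped. It was 3.09-fold lower than in elo-5 C17ISO larvae (log2 -1.63, SE 0.16, adjusted p = 2.4e-05) and 3.79-fold lower than in N2 larvae (log2 -1.92, adjusted p = 6.9e-06). ugt-31 read 260.0 and 151 in elo-5 C13ISO larvae and 464 and 465 in elo-5 C17ISO larvae, against 555 and 529 in N2 larvae. Its 2 low arrays differed more from each other than the other pairs did, and it was 2.24-fold (adjusted p = 0.00167) and 2.60-fold lower (adjusted p = 5.6e-04) than in those groups.

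ugt-51 and ugt-60 also fell in both comparisons, in different proportions. ugt-51 read 90.0 and 96.6 in elo-5 C13ISO larvae and 243 and 203 in elo-5 C17ISO larvae, against 164 and 164 in N2 larvae, and was 2.18-fold (adjusted p = 4.4e-04) and 1.65-fold lower (adjusted p = 0.00627). ugt-60 read 124 and 95.5 in elo-5 C13ISO larvae and 209.8 and 187 in elo-5 C17ISO larvae, against 349 and 318 in N2 larvae, and was 1.71-fold (adjusted p = 0.00554) and 2.79-fold lower (adjusted p = 9.3e-05). For ugt-51 the elo-5 C17ISO arrays were above the N2 arrays, and for ugt-60 they were below, with neither difference called (adjusted p = 0.285 for ugt-51 and 0.0966 for ugt-60).

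ugt-23 and ugt-21 were lower in both comparisons, but not all of these calls held without single arrays. ugt-23 read 254 and 227 in elo-5 C13ISO larvae and 428 and 355 in elo-5 C17ISO larvae, against 434 and 531 in N2 larvae. It was lower in both comparisons (log2 -0.66, adjusted p = 0.0103, and log2 -0.95, adjusted p = 0.00133), with the first call lost without the first elo-5 C17ISO array (adjusted p = 0.0873). ugt-21 read 49.5 and 32.1 in elo-5 C13ISO larvae and 69.8 and 76.6 in elo-5 C17ISO larvae, against 101 and 71.6 in N2 larvae, and was lower in both (log2 -0.67, adjusted p = 0.0343, and log2 -0.85, adjusted p = 0.0113). The first of these calls was lost without the second elo-5 C13ISO array or either elo-5 C17ISO array (adjusted p between 0.0892 and 0.170), and the other without the second elo-5 C13ISO array (0.0678) or the first N2 array (0.108).

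Another 4 members fell in 1 of the 2 comparisons. ugt-40 read 37.5 and 21.2 in elo-5 C13ISO larvae and 67.2 and 57.7 in elo-5 C17ISO larvae, against 53.7 and 37.3 in N2 larvae. It was lower than in elo-5 C17ISO larvae (log2 -0.81, adjusted p = 0.0184) but not without the second elo-5 C13ISO array (adjusted p = 0.109) or the first elo-5 C17ISO array (0.0980). ugt-12 read 638 and 449 in elo-5 C13ISO larvae and 964 and 693 in elo-5 C17ISO larvae, against 528 and 593 in N2 larvae. Its elo-5 C13ISO arrays lay on both sides of the N2 arrays, and the decrease from elo-5 C17ISO larvae (log2 -0.60, adjusted p = 0.0383) was lost without the second elo-5 C13ISO array (log2 -0.35, adjusted p = 0.209), the first elo-5 C17ISO array (log2 -0.36, adjusted p = 0.262) or either N2 array. ugt-17 read 138 and 121 in elo-5 C13ISO larvae and 163 and 195 in elo-5 C17ISO larvae, against 208 and 238 in N2 larvae. It was lower than in N2 larvae (log2 -0.71, adjusted p = 0.00791), a call lost without the second N2 array (adjusted p = 0.0814). ugt-32 read 56.2 and 42.7 in elo-5 C13ISO larvae and 73.5 and 81.0 in elo-5 C17ISO larvae, against 70.2 and 88.3 in N2 larvae, and only just passed relative to N2 larvae (log2 -0.54, adjusted p = 0.0487), a call lost without any one of 5 of the 6 arrays.

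By chromosomal order in the gene table, 31 of the 67 ugt genes lay in 10 runs, meaning neighbours with no other protein-coding gene between them. The other 36 stood alone. Of the 25 tested members in runs, 15 were higher and 3 lower relative to elo-5 C17ISO larvae, with a median log2 difference of 0.60. Of the 30 tested members outside runs, 8 were higher and 6 lower, with a median of -0.03. Relative to N2 larvae the counts were 15 higher and 2 lower in runs (median 0.61), and 6 higher and 7 lower outside them (median 0.14). Outside runs, 26.7% were thus higher and 20% lower relative to elo-5 C17ISO larvae, beside 27.2% and 18.9% of all tested genes, and 20% higher and 23.3% lower relative to N2 larvae, beside 24.8% and 20.4%. The split into runs was made after the values had been seen, so these counts are a description, and neighbouring ugt genes can be near-copies whose probes share signal, which was not tested.

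The longest run held ugt-11, ugt-9, ugt-10, ugt-67, ugt-8, ugt-14 and ugt-13, with 6 of the 7 tested and 4 higher in each comparison. Besides ugt-11, ugt-9 and ugt-13, the higher member was ugt-8, which read 144 and 136 in elo-5 C13ISO larvae and 93.3 and 96.3 in elo-5 C17ISO larvae, against 73.3 and 76.1 in N2 larvae. Its log2 difference of 0.50 from elo-5 C17ISO larvae (adjusted p = 0.0358) was not called without any one of the 6 arrays (adjusted p between 0.0546 and 0.136), while that of 0.78 from N2 larvae had adjusted p = 0.00367. The neighbours differed within the run. ugt-10 had log2 differences of 0.54 (adjusted p = 0.0610) and 0.52 (adjusted p = 0.0685), and ugt-67, at 58.2 and 35.8 in elo-5 C13ISO larvae and 62.0 and 41.1 in elo-5 C17ISO larvae, against 43.9 and 66.1 in N2 larvae, overlapped both other groups. ugt-14, not tested, read 20.7 to 30.6 on all arrays.

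The run of ugt-26, ugt-27, ugt-28 and ugt-25 held members that moved in opposite directions. ugt-26 fell, while ugt-28 and ugt-25 rose in both comparisons, with the limit on ugt-28 given above. ugt-27 read between 1.11 and 16.4 and was not tested. The run of ugt-5, ugt-4, ugt-6 and ugt-3 was also mixed. ugt-6 fell and ugt-4 rose, at 175 and 162 in elo-5 C13ISO larvae and 121 and 91.4 in elo-5 C17ISO larvae, against 65.6 and 97.5 in N2 larvae. The increase of ugt-4 was 1.52-fold over elo-5 C17ISO larvae (adjusted p = 0.0413) and 1.92-fold over N2 larvae (adjusted p = 0.00509). The first call was lost without either elo-5 C13ISO array or the second elo-5 C17ISO array (adjusted p between 0.0714 and 0.248), and the other without the first N2 array (0.0581). ugt-5 stayed between 564 and 637 on all 6 arrays, and its log2 differences were -0.07 and -0.11, neither called. ugt-3 read 28 to 38.8 on all arrays, with log2 differences of 0.05 and -0.06.

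Next to ugt-16, ugt-18 read 422 and 313 in elo-5 C13ISO larvae and 298 and 238 in elo-5 C17ISO larvae, against 237 and 203 in N2 larvae. It was 1.61-fold higher than in N2 larvae (adjusted p = 0.0162), a call lost without the first elo-5 C13ISO array (adjusted p = 0.0810) or the second N2 array (0.125). ugt-15, the third of that run, read 123 and 96.4 in elo-5 C13ISO larvae and 52.4 and 73.2 in elo-5 C17ISO larvae, against 124 and 124 in N2 larvae. Low values in elo-5 C17ISO larvae set it apart from its neighbours. It was 1.60-fold higher in elo-5 C13ISO than in elo-5 C17ISO larvae (adjusted p = 0.0194), a call lost without the first elo-5 C13ISO array (adjusted p = 0.0898) or the first elo-5 C17ISO array (0.151).

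Beside ugt-40, ugt-37 overlapped between all groups, at 167 and 244 in elo-5 C13ISO larvae and 190.3 and 207 in elo-5 C17ISO larvae, against 225 and 193 in N2 larvae, and ugt-38 was too dim to test (12 to 26.4). Beside ugt-2, ugt-1 read 145 and 111 in elo-5 C13ISO larvae and 71.2 and 72.5 in elo-5 C17ISO larvae, against 82.3 and 79.0 in N2 larvae. It was 1.63-fold higher than in elo-5 C17ISO larvae (adjusted p = 0.0116) and 1.48-fold higher than in N2 larvae (adjusted p = 0.0326). The first call was lost without the first elo-5 C13ISO array or either elo-5 C17ISO array (adjusted p between 0.0555 and 0.0596), and the other without any one of 5 of the 6 arrays. Beside ugt-19, ugt-20 read 170.3 and 154 in elo-5 C13ISO larvae and 119 and 101 in elo-5 C17ISO larvae, against 107 and 94.2 in N2 larvae. Its elo-5 C13ISO arrays lay above all others, but both its calls were lost when single arrays were left out (log2 0.50, adjusted p = 0.0416, without any one of the 6, and log2 0.61, adjusted p = 0.0181, without the first elo-5 C13ISO array or either N2 array).

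The neighbour of ugt-44, ugt-43, was too dim to test and read 39.3 and 29.7 in elo-5 C13ISO larvae and 14.3 and 2.21 in elo-5 C17ISO larvae, against 23.1 and 23.5 in N2 larvae. In the pair of ugt-55 and ugt-56, ugt-55 read 486 and 409 in elo-5 C13ISO larvae and 274 and 291 in elo-5 C17ISO larvae, against 312 and 299 in N2 larvae. It was 1.55-fold (adjusted p = 0.00839) and 1.44-fold higher (adjusted p = 0.0214), and the first call was lost without the first elo-5 C17ISO array (adjusted p = 0.0537) and the other without the first elo-5 C13ISO array or either N2 array (0.0764 to 0.132). ugt-56 read 103 and 44.4 in elo-5 C13ISO larvae and 30.8 and 32.3 in elo-5 C17ISO larvae, against 63.5 and 52.7 in N2 larvae. The first elo-5 C13ISO array carried much of that difference, which was 1.78-fold from elo-5 C17ISO larvae (log2 0.83, SE 0.29, adjusted p = 0.0382) and log2 0.34 (adjusted p = 0.253) without that array. The call was also lost without either elo-5 C17ISO array (0.115 and 0.131) or the first N2 array (0.0501). The pair of ugt-34 and ugt-35 gave no test, as ugt-35 was below the filter at 5.51 and 2.24 in elo-5 C13ISO larvae and 45.4 and 83.4 in elo-5 C17ISO larvae, against 27.9 and 14.0 in N2 larvae.

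**Figure D3:**
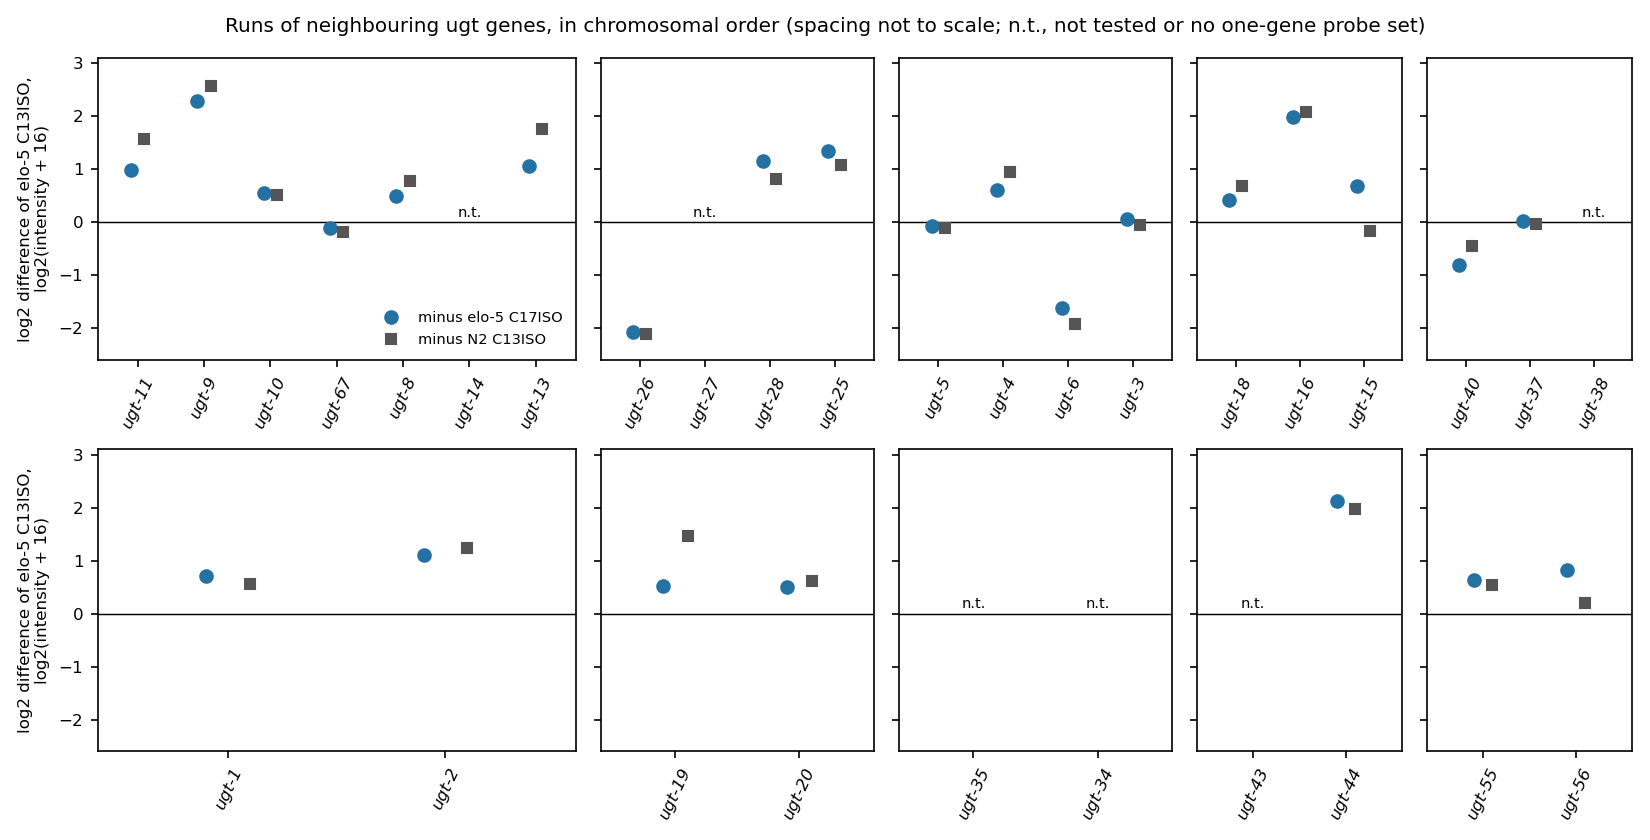
Log2 difference of elo-5 C13ISO larvae from elo-5 C17ISO larvae (blue circles) and from N2 C13ISO larvae (grey squares) for the ugt genes of each of the 10 runs, in chromosomal order and not to scale; n.t. marks genes not tested. The first run has ugt-9 at 2.29 and 2.57 beside ugt-67 at -0.11 and -0.18, and the second has ugt-26 at -2.07 and -2.11 beside ugt-25 at 1.35 and 1.07.

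The other bright members changed less or not detectably. ugt-62 read 1106 and 907 in elo-5 C13ISO larvae and 651 and 548 in elo-5 C17ISO larvae, against 685 and 630.1 in N2 larvae. It was 1.66-fold (adjusted p = 0.00366) and 1.51-fold higher (adjusted p = 0.0111), the second call being lost without the first elo-5 C13ISO array (adjusted p = 0.0517) or the second N2 array (0.0923). ugt-50 read 858 and 1019 in elo-5 C13ISO larvae and 604 and 673 in elo-5 C17ISO larvae, against 599 and 569.6 in N2 larvae, 1.46-fold (adjusted p = 0.0128) and 1.59-fold higher (adjusted p = 0.00435). Its first call was lost without the second elo-5 C13ISO array (adjusted p = 0.0568) or the first elo-5 C17ISO array (0.0776), and its 2 dimmer probe sets were not called (log2 0.36, adjusted p = 0.119, and 0.02, adjusted p = 0.926, relative to elo-5 C17ISO larvae). ugt-58 read 858 and 802 in elo-5 C13ISO larvae and 884 and 724 in elo-5 C17ISO larvae, against 792 and 633 in N2 larvae. Its elo-5 C13ISO arrays lay between the elo-5 C17ISO arrays and just above the N2 arrays, with log2 differences of 0.05 (95% interval -0.31 to 0.41) and 0.22 (-0.14 to 0.58), neither called.

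Outside the genes chosen by size, brightness or position, 2 more members were called, both higher relative to elo-5 C17ISO larvae and neither called relative to N2 larvae. ugt-46 read 436 and 400.4 in elo-5 C13ISO larvae and 235 and 238 in elo-5 C17ISO larvae, against 381 and 341 in N2 larvae. The elo-5 C17ISO arrays were the low ones, 1.72-fold below elo-5 C13ISO (adjusted p = 0.00219), and its second probe set gave log2 0.85 (adjusted p = 0.00239). ugt-64 read 281 and 208 in elo-5 C13ISO larvae and 126 and 166 in elo-5 C17ISO larvae, against 177 and 183 in N2 larvae, 1.60-fold higher (adjusted p = 0.0181), a call lost without the first elo-5 C13ISO array (0.0917) or the first elo-5 C17ISO array (0.142).

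Members without a call had differences between -0.52 and 0.54 relative to elo-5 C17ISO larvae (23 members) and between -0.46 and 0.62 relative to N2 larvae (25 members). The 95% intervals of 20 of the 23 and 23 of the 25 lay within a 2-fold change in either direction. The widest bounds were -0.96 and 1.06 in the first comparison and -0.98 and 1.18 in the second, so changes up to those bounds could not be told from none. For ugt-48, the probe set used was not called relative to N2 larvae (log2 -0.40, adjusted p = 0.0992). Its dimmer probe set was called lower (log2 -0.64, adjusted p = 0.0413), as was the mean of its probe sets (log2 -0.52, adjusted p = 0.0431). The 9 members below the intensity filter, ugt-7, ugt-14, ugt-27, ugt-30, ugt-35, ugt-38, ugt-42, ugt-43 and ugt-63, read between 1.11 and 83.4, while tested members read between 18.8 and 2129. The filter used the mean over all 6 arrays.

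Between elo-5 C17ISO and N2 larvae the ugt differences ran from -0.84 for ugt-15 (adjusted p = 0.0810) to 0.93 for ugt-19 (adjusted p = 0.0724), with a median of 0.06 (-0.04 over all tested genes). None passed limma's adjusted threshold. At an unadjusted p of at most 0.05, 9 were higher (16.4%, against 6.68% of all tested genes) and 4 lower (7.27%, against 9.34%). The intervals of 46 of the 55 lay within a 2-fold change, and the outermost bounds were -1.29 and 1.42. Arrays did not overlap for 15 members higher (27.3%, against 21.0% of all tested genes) and 14 lower (25.5%, against 29.9%). Calls under other settings were ugt-19 higher after quantile normalization, with aligned medians and with the replicate block, ugt-13 higher without the first elo-5 C13ISO array, and ugt-15 and ugt-60 lower without either elo-5 C13ISO array or with only the 4 arrays compared.

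UDP-glucuronate supply, use and transport were represented by 4 tested genes, while gale-1 and K08E3.5, also chosen, had no probe set of their own under those names. In elo-5 C13ISO larvae, 3 of the 4 tested were lower in each comparison (75%, against 18.9% and 20.4% of all tested genes) and none higher. sqv-4, the UDP-glucose dehydrogenase that makes UDP-glucuronate, averaged 642 ± 63.0 in elo-5 C13ISO larvae and 993 ± 109 in elo-5 C17ISO larvae, against 1281 ± 80.7 in N2 larvae (SD, n = 2 arrays each). It was 1.53-fold lower than in elo-5 C17ISO larvae (adjusted p = 0.00568) and 1.97-fold lower than in N2 larvae (adjusted p = 3.2e-04). sqv-7, which carries UDP-sugars across the Golgi membrane, read 941 and 1074 in elo-5 C13ISO larvae and 1401 and 1488 in elo-5 C17ISO larvae, against 1362 and 1279 in N2 larvae (1.43-fold lower, adjusted p = 0.00744, and 1.31-fold lower, adjusted p = 0.0300). D1005.2 was also lower (log2 -0.70, adjusted p = 0.0148, and -0.83, adjusted p = 0.00601). sqv-1, which converts UDP-glucuronate to UDP-xylose, was not called (log2 0.29 and -0.01). With a gene's probe sets averaged, only 2 were lower in each comparison, and the medians of -0.57 and -0.61 became -0.36 and -0.53. The filter at the 50th percentile left 3 tested, of which 2 were lower in each. Relative to N2 larvae, 2 were lower after quantile normalization or without limma's intensity trend. Without single arrays the medians were -0.64 to -0.47 relative to elo-5 C17ISO larvae and -0.64 to -0.57 relative to N2 larvae.

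Phase I enzymes, here cytochromes P450 (cyp), flavin monooxygenases (fmo) and the P450 reductase emb-8, moved in both directions. Of 65 tested, 24 were higher (36.9%, against 27.2% of all tested genes) and 18 lower (27.7%, against 18.9%) relative to elo-5 C17ISO larvae. Their median was 0.16. Relative to N2 larvae, 27 were higher (41.5%, against 24.8%) and 17 lower (26.2%, against 20.4%), with a median of 0.13. Both of the counts relative to N2 larvae were smaller when either N2 array was left out. The medians of both comparisons turned negative after quantile normalization (-0.02 and -0.01) and with aligned medians (-0.07 and -0.03), so the list had no settled direction. cyp-13B1 read 396 and 512 in elo-5 C13ISO larvae and 4248 and 4647 in elo-5 C17ISO larvae, against 3447 and 2946 in N2 larvae, 9.56-fold (adjusted p = 1.5e-07) and 6.87-fold lower (adjusted p = 3.4e-07). Relatives moved the other way: cyp-13A7 was 6.41-fold (adjusted p = 1.6e-05) and 6.32-fold higher (adjusted p = 1.5e-05), and cyp-13A8 was 4.30-fold (adjusted p = 7.4e-05) and 11.1-fold higher (adjusted p = 2.4e-06). cyp-35C1 was 5.42-fold (adjusted p = 2.4e-05) and 3.74-fold higher (adjusted p = 1.1e-04).

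The other phase II list held glutathione S-transferases (gst and gsto) and the sulfotransferase ssu-1. Of 42 tested genes, 23 were higher (54.8%, against 27.2% of all tested genes) and 6 lower (14.3%, against 18.9%) relative to elo-5 C17ISO larvae. Relative to N2 larvae, 24 were higher (57.1%, against 24.8%) and 7 lower (16.7%, against 20.4%). The median of the list was 0.70 in both, and 0.47 and 0.54 with aligned medians. Without single arrays it was 0.56 to 0.83 relative to elo-5 C17ISO larvae. Relative to N2 larvae it was 0.57 without the second N2 array and 0.83 without the first. Leaving out the second N2 array also gave the fewest genes of this list called higher than in N2 larvae among all settings. gst-38 read 1431 and 1458 in elo-5 C13ISO larvae and 143 and 139.9 in elo-5 C17ISO larvae, against 232 and 144 in N2 larvae, 9.28-fold (adjusted p = 1.2e-06) and 7.32-fold higher (adjusted p = 2.7e-06). gsto-1, an omega-class glutathione transferase, read 44.2 and 28.9 in elo-5 C13ISO larvae and 380.0 and 255 in elo-5 C17ISO larvae, against 313 and 393 in N2 larvae, 6.30-fold (adjusted p = 1.2e-05) and 7.06-fold lower (adjusted p = 7.2e-06). gst-26 was also lower, 4.16-fold (adjusted p = 8.7e-06) and 4.63-fold (adjusted p = 5.0e-06).

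Efflux transporters were those of the P-glycoprotein (pgp), multidrug resistance (mrp) and half-transporter (haf) families. Relative to elo-5 C17ISO larvae, 13 of 26 tested genes were higher (50%, against 27.2% of all tested genes) and 2 lower (7.69%, against 18.9%). Their median was 0.52. Relative to N2 larvae, 14 were higher (53.8%, against 24.8%) and 4 lower (15.4%, against 20.4%), with a median of 0.67. With aligned medians the first split was 12 higher and 5 lower, and without the second elo-5 C17ISO array it was 12 and 1. pgp-1 read 857 and 1445 in elo-5 C13ISO larvae and 202 and 209 in elo-5 C17ISO larvae, against 298 and 195 in N2 larvae, 5.10-fold (adjusted p = 5.0e-05) and 4.39-fold higher (adjusted p = 8.9e-05). mrp-2 read 2639.8 and 3359.6 in elo-5 C13ISO larvae and 1188 and 1154 in elo-5 C17ISO larvae, against 972 and 738 in N2 larvae, 2.52-fold (adjusted p = 1.0e-04) and 3.47-fold higher (adjusted p = 1.3e-05).

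Of 12 tested regulators linked to detoxification genes, 5 were higher relative to elo-5 C17ISO larvae (41.7%, against 27.2% of all tested genes). Another 1 was lower (8.33%, against 18.9%). Relative to N2 larvae, 4 were higher (33.3%, against 24.8%) and 2 lower (16.7%, against 20.4%). With aligned medians these counts were 1 and 1, and 2 and 2. The first count was 3 higher without the second elo-5 C13ISO array or either elo-5 C17ISO array, and relative to N2 larvae it was 2 higher and 1 lower without the second N2 array. nhr-8, a nuclear receptor known for resistance to toxins, averaged 604 ± 58.6 in elo-5 C13ISO larvae and 240.4 ± 36.4 in elo-5 C17ISO larvae, against 224 ± 18.9 in N2 larvae (SD, n = 2 arrays each), 2.43-fold (adjusted p = 2.0e-04) and 2.58-fold higher (adjusted p = 1.2e-04). ahr-1, the worm's aryl hydrocarbon receptor, averaged 165 ± 0.389 in elo-5 C13ISO larvae and 459 ± 12.3 in elo-5 C17ISO larvae, against 386 ± 4.92 in N2 larvae (SD, n = 2 arrays each), 2.63-fold (adjusted p = 4.4e-05) and 2.23-fold lower (adjusted p = 1.4e-04). elt-2, the GATA factor of the intestine, which is also among the intestine markers, was 1.58-fold (adjusted p = 0.00920) and 1.97-fold higher (adjusted p = 8.8e-04). skn-1, the worm's Nrf factor, was not called (log2 0.31, adjusted p = 0.0608, and 0.26, adjusted p = 0.101). hif-1, also chosen for this list, had no probe set of its own under that name.

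**Figure D4:**
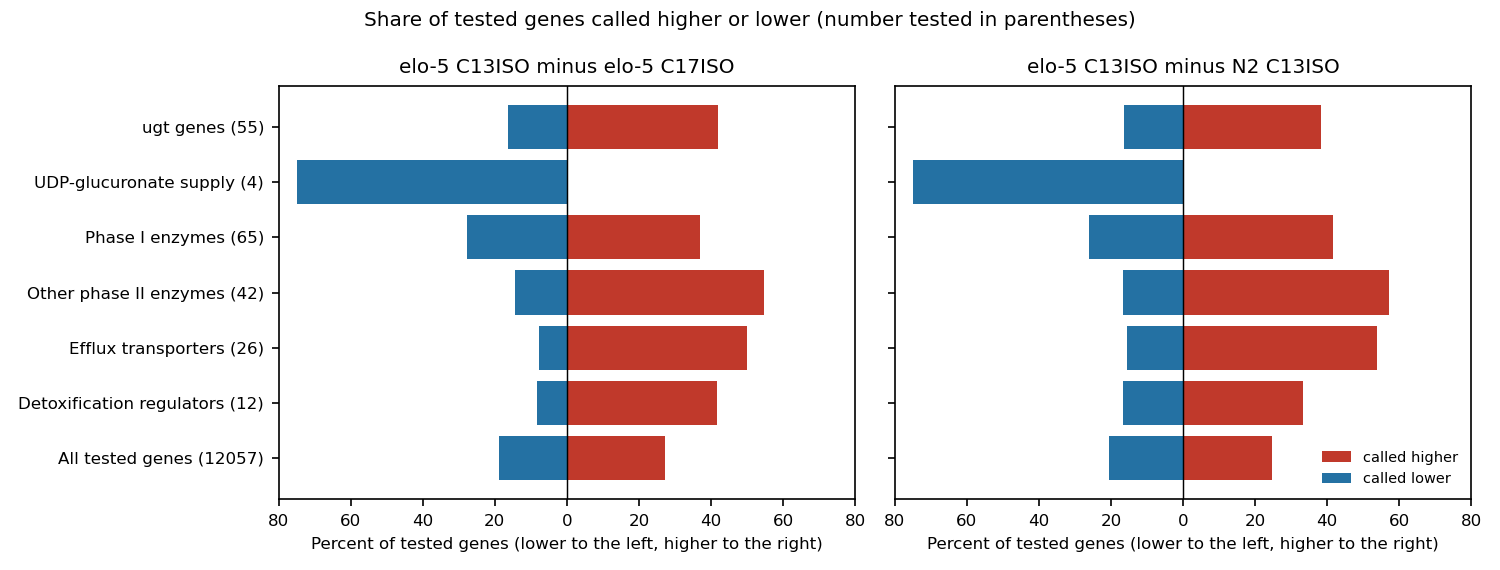
Percent of tested genes called higher (red, to the right) and lower (blue, to the left) in elo-5 C13ISO larvae against elo-5 C17ISO larvae (left panel) and N2 C13ISO larvae (right panel), for the ugt genes, each pathway list and all tested genes, with the number tested in parentheses. The ugt genes stand at 41.8% higher and 16.4% lower in the left panel, where all tested genes stand at 27.2% and 18.9%.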

How the data were processed

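The authors deposited linear intensities, 1 for each probe set on each array, computed with dChip, per the labels. Neither its version nor how arrays were normalized is given in the sources used here. The table held 22548 probe sets, of which 20766 were annotated to 1 gene, 887 to several and 895 to none. All 64 members matched a RefSeq symbol (WBcel235) by Entrez ID. The array's probe annotation can be old.

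Intensities were transformed as log2(intensity + 16), an offset that understates changes of dim probe sets. The 15783 probe sets with a mean above the 30th percentile were fitted with limma 3.58.1 in R 4.3.3 (a mean per group over all 6 arrays, eBayes with trend, 3 residual degrees of freedom and 6.94 from the prior). Two-sided p-values were adjusted by Benjamini-Hochberg over those probe sets. The number of arrays limits the precision. The fit was tested on simulated data. Python 3.11.15, pandas 2.3.3 and matplotlib 3.10.9 made the tables and figures.

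Per-array values are given for the 10 largest called increases and decreases of elo-5 C13ISO larvae in both comparisons, the 5 brightest members and run neighbours of named members, and up to 4 genes are named per pathway list and comparison. The members ugt-35, ugt-46, ugt-55, ugt-56 and ugt-64, and skn-1 and sqv-1, were named after their values were seen. Lists with markers of intestine, hypodermis, neuron, muscle, oocyte and early embryo, and sperm were used for description. Members and lists were chosen with earlier results of these data known. Alternatives varied the offset, filter, scaling, variance prior, probe set summary, arrays in the fit, replicate block and single arrays left out.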

Additional observations from a re-analysis of the deposited data

How the results depend on the processing

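Against elo-5 C17ISO larvae, the 23 higher and 9 lower ugt calls became 15 and 15 with array medians aligned, 9 and 4 when a 2-fold change was also asked for, and 15 to 21 and 5 to 12 when single arrays were left out. The median log2 difference of 0.41 was 0.43 with offset 1, 0.28 with offset 64, 0.31 without a filter, 0.28 after quantile normalization, 0.18 with medians aligned, 0.33 with a gene's probe sets averaged, and 0.30 to 0.44 without single arrays. Against N2 larvae, the 21 higher and 9 lower calls became 12 and 4 with the 2-fold rule. Both of these counts also moved when single arrays were left out. The median of 0.28 against N2 larvae was 0.36 with the filter at the 50th percentile, 0.12 with medians aligned, and 0.21 to 0.34 without single arrays. For elo-5 C17ISO against N2 larvae, 1 member was higher after quantile normalization, with medians aligned and with the replicate block, and 2 were lower with only the arrays compared, where the main counts were 0. Without single arrays these counts were 0 to 1 and 0 to 2, and the median of 0.06 was -0.01 to 0.06, or 0.13 with medians aligned. The replicate block gave 25 higher and 9 lower ugt genes against elo-5 C17ISO larvae and 22 and 8 against N2 larvae. Deviations of same-numbered arrays correlated at 0.0015, 0.0541 and 0.0818 over tested probe sets. Whether same-numbered arrays were prepared together was not tested. The 2-fold rule aside, 18 of 32 calls against elo-5 C17ISO larvae and 20 of 30 against N2 larvae held in every setting that tested the gene. No call reversed. The cause of these changes was not tested. Groups of 2 arrays limit every value here.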
